A study of Mus musculus with 29 samples.

Results

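The 6 microRNAs (miRNAs) described here, mmu-miR-191-5p, mmu-miR-425-5p, mmu-miR-423-3p, mmu-miR-423-5p, mmu-miR-320-3p and mmu-miR-484, are often used to normalize serum miRNA measurements. They were taken by name from a table of 1183 miRNAs, and all 6 belong to the 695 that have a value in every library. The 29 small RNA libraries were made from serum and from a lower leg muscle, the tibialis anterior, of C57BL/6 mice. The young group was 6 months old and labelled control, the old group was 24 months old and also labelled control, and the disuse group was 6 months old and labelled a model of atrophy induced by disuse. Each group had 5 libraries in each source except old serum, which had 4. For the way disuse was imposed, nothing is given in the sources used here. The labels do not tie libraries to individual animals; the spread that the p-values rest on is that of the samples as numbered, and some of it may be technical.

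A miRNA guides an Argonaute protein to messenger RNAs, mostly through its seed, the bases near its 5′ end. A reference miRNA is used to correct for differences in RNA recovery, and it serves that purpose only if its own level is the same in the samples compared. miR-191 and miR-425 come from neighbouring hairpins. miR-423-3p and miR-423-5p are the opposite strands of a single hairpin. miR-320 and miR-484 are made from short capped transcripts without cleavage by Drosha, the nuclease that releases most other miRNA hairpins.

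The mature sequences of the members are shown because they set which counts can be shared with another miRNA. RefSeq (GRCm38.p6) held 5 of the 6, printed 5′ to 3′ with the seed, bases 2 to 8, in capitals.
mmu-miR-191-5p: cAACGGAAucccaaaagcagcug
mmu-miR-425-5p: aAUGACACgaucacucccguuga
mmu-miR-423-3p: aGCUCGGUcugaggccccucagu
mmu-miR-423-5p: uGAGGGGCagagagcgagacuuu
mmu-miR-484: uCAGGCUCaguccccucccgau
These are 5 different seeds, so no pair among them shares one. The seed of miR-425-5p is also that of miR-489-3p, and the seed of miR-423-5p is also that of miR-6921-5p. For each of the 5, 0 hairpins of other loci held the mature sequence with at most 1 mismatch, so no near-identical copy in that set could share its reads.

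The hairpins lie at 4 places in the mouse genome (GRCm38, the build also called mm10, with GENCODE M21 annotation). Mir191 (chr9:108568319-108568392, plus strand) and Mir425 (chr9:108568777-108568861, plus strand) are 384 bases apart, both in an exon of the long noncoding RNA 4833445I07Rik. A second miRNA gene model, Gm24083, lies over Mir191 on the opposite strand. Mir423 (chr11:77078064-77078172, minus strand) is in an intron of Nsrp1. Mir320 (chr14:70443510-70443591, plus strand) overlaps no other gene and lies 62 bases from Polr3d, which is on the opposite strand. Mir484 (chr16:14159626-14159692, plus strand) overlaps an exon of Marf1 on the opposite strand. Whether the authors' counting used strand is not given in the sources used here.

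Library totals were 254624 to 5943445 counts in muscle and 45176 to 309133 in serum. The source labels were checked against marker miRNAs: a list of 7 striated muscle miRNAs summed to 377159 to 524060 CPM (counts scaled to a common library total) in muscle libraries and to 649.9 to 4751 CPM in serum. Among them miR-208b-3p was at 0 in every young and old serum library, and miR-499-5p in every old and disuse serum library. miR-208b-3p averaged 6.13 CPM in muscle. A count of 0 in young serum 4, the deepest young or old serum library, allows 10.3 CPM, so its absence does not tell the sources apart. A list of 6 erythrocyte miRNAs summed to 59270 to 135167 CPM in muscle and 187693 to 528733 CPM in serum. In muscle, miR-486-5p of that list averaged 59290 CPM, miR-3107-5p 27509 CPM and miR-451a 46.8 CPM. The muscle sum is thus mostly miR-486-5p and miR-3107-5p, and no share of red cells is read from it. Muscle and serum RNA were extracted with different kits and entered the library preparation at 2 µg and 10 ng, so source and preparation cannot be told apart. In bulk muscle, fewer cells of a type and less RNA per cell cannot be told apart either.

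Levels are given as CPM of the library total. They were not corrected for how well each miRNA is captured, and mature miRNAs of 22 or 23 bases need no correction for length. The 6 together took 1.30% to 2.91% of the counts of a muscle library and 4.51% to 11.7% of a serum library. miR-191-5p made up most of that share in both sources.

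miR-191-5p, the most abundant member, was at 14578, 10274, 23557, 10027 and 12186 CPM in young muscle, at 9374, 12973, 14419, 15967 and 13066 CPM in old muscle, and at 12372, 11037, 14260, 13164 and 10034 CPM in disuse muscle. Young muscle 3 stood above all other muscle libraries, and the 3 groups overlapped. In serum it was at 39496, 75372, 56839, 110715 and 70045 CPM in the young group, at 78184, 80122, 69003 and 78626 CPM in the old, and at 67554, 76831, 64854, 63319 and 79061 CPM in disuse. Young serum held both the lowest and the highest library, with old and disuse libraries between them. The group means were 14124 ± 5580, 13160 ± 2441 and 12173 ± 1677 CPM (SD, n = 5) in young, old and disuse muscle. In serum they were 70494 ± 26406 (n = 5), 76484 ± 5055 (n = 4) and 70324 ± 7165 CPM (SD, n = 5).

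miR-425-5p, from the hairpin next to miR-191, was the least abundant member. It was at 59.6, 111, 59.4, 76.5 and 143 CPM in young muscle, at 149, 105, 168, 96.4 and 88.1 CPM in old muscle, and at 116, 154, 90.3, 117 and 101 CPM in disuse muscle. All old and all disuse libraries were above the young median, but the groups overlapped. Serum values were 464, 422, 366, 639.6 and 305 CPM in young, 716, 372, 627 and 221 CPM in old, and 447, 195, 377, 476 and 384 CPM in disuse. The lowest old value rests on 10 counts, with an exact 95% binomial interval of 106 to 407 CPM. That interval, like all others here, covers counting error only, since no molecular identifiers separate amplified copies from independent molecules. Of the opposite strands of this pair, miR-191-3p averaged 14.2 CPM in muscle with 2 to 110 counts a library, and 12.4 CPM in serum with 0 to 5 counts. miR-425-3p averaged 6.30 CPM in muscle and 12.3 CPM in serum, with 0 to 5 counts a serum library. A count of 0 in the shallowest serum library allows 66.4 CPM, taken as 3 counts of its total and not as a binomial interval.

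miR-423-3p was at 1614, 2055, 1917, 1999 and 1372 CPM in young muscle, at 1428, 1852, 1587, 2132 and 1896 CPM in old muscle, and at 1867, 1505, 2121, 2069.7 and 1972 CPM in disuse muscle. The 3 muscle groups lay within the same range. In serum it was at 696, 804, 610.4, 660.2 and 596 CPM in young, 1318, 905, 1204 and 1195 CPM in old, and 1181, 725, 699, 786 and 994 CPM in disuse. Every old serum library was above every young one. How many of all miRNAs separated these groups in this way was not counted. The disuse libraries spanned the gap and overlapped both groups.

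miR-423-5p, the opposite strand, was at 663, 649.8, 868, 1454 and 654 CPM in young muscle, at 347, 863, 694, 1001 and 503 CPM in old muscle, and at 785, 452, 1096, 776 and 537 CPM in disuse muscle. Old muscle 1 was the lowest and young muscle 4 the highest of the 15. Serum values were 1863, 1437, 1699, 1743 and 1729 CPM in young, 3917, 1519, 1854 and 2103 CPM in old, and 2379.9, 1365, 1428, 1200.1 and 1857 CPM in disuse. Old serum 1 was the highest serum library, and the 3 serum groups overlapped.

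miR-320-3p was at 1092, 947, 1206, 1383 and 774 CPM in young muscle, at 501, 983, 548, 869 and 831 CPM in old muscle, and at 863, 772, 892, 915 and 968 CPM in disuse muscle. None of the old or disuse libraries exceeded the young median, and the ranges overlapped. In serum it was at 801, 542, 885, 340.4 and 683 CPM in young, at 678, 644, 627 and 619.8 CPM in old, and at 803, 779.9, 622, 608 and 858 CPM in disuse. The 4 old libraries lay within the spread of the young ones, which again held both extremes.

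miR-484, the other member made without Drosha, was at 1315, 1677, 1466, 1116 and 1309 CPM in young muscle, at 1247, 1022, 1557, 1274 and 1133 CPM in old muscle, and at 1363, 1485, 1319.6, 1436 and 1386 CPM in disuse muscle. Disuse muscle was the tightest group. Serum values were 1826, 2389, 1831, 2555 and 1962 CPM in young, 2348, 1856, 3939 and 1704 CPM in old, and 2569, 2675, 2761, 3299.6 and 2524 CPM in disuse. All 5 disuse libraries were above the young median, and the lowest of them was below the highest young library.

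**Figure D1:**
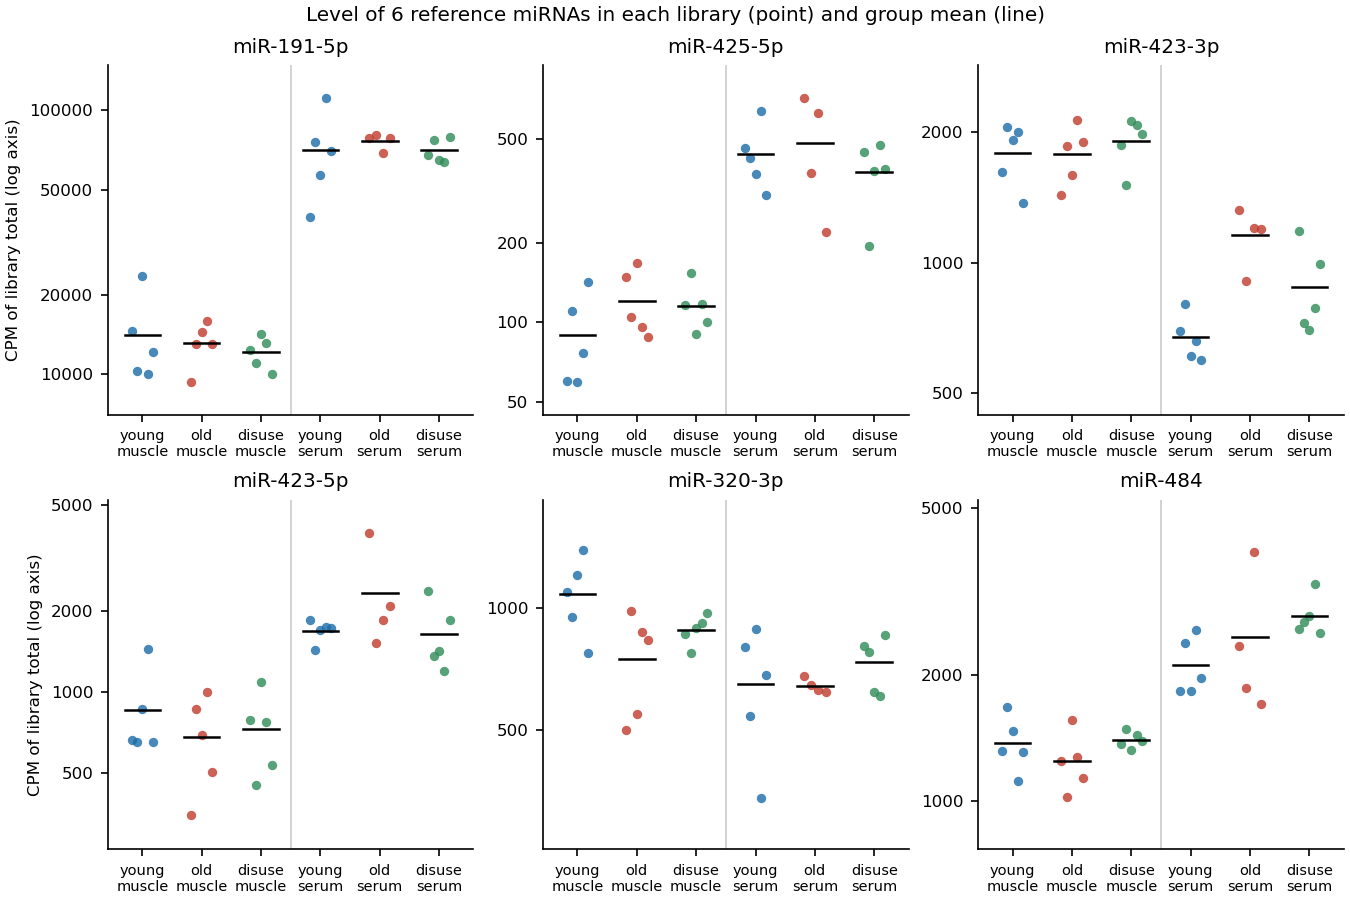
Each panel plots a reference miRNA, with a point for each library and a line at the group mean, on a log axis of CPM; blue is young, red old and green disuse. The groups overlap within a source in each panel except old and young serum for miR-423-3p (905 to 1318 against 596 to 804 CPM).

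Stability was measured as the SD of log2 CPM over all libraries of a source, after scaling by TMM factors (trimmed mean of M-values, which correct library totals for composition). Each SD was ranked among the miRNAs with a mean of at least 100 CPM, 122 in muscle and 133 in serum. On this scale 3 of 6 members in muscle and 4 of 6 in serum had an SD below the median of these abundant miRNAs. With library totals in place of TMM factors the counts were 3 of 6 in muscle and 6 of 6 in serum. Their median SD was 0.32 in muscle, beside 0.33 for all abundant miRNAs, and 0.43 in serum, beside 0.52.

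In muscle, miR-423-3p varied least (SD 0.19, rank 9 of 122), followed by miR-484 (0.23, rank 25) and miR-191-5p (0.30, rank 43). miR-320-3p was at 0.35 (rank 66), and miR-423-5p (0.46, rank 102) and miR-425-5p (0.51, rank 106) were among the more variable. In serum, miR-320-3p varied least (SD 0.29, rank 13 of 133). miR-423-3p (0.42, rank 40), miR-484 (0.43, rank 44) and miR-423-5p (0.43, rank 48) followed. miR-425-5p (0.55, rank 76) and miR-191-5p (0.57, rank 83) were above the median. The order in muscle was thus not the order in serum. No test was made of these SDs.

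The SD expected from counting alone was far below these values for miR-191-5p (0.02 in serum). For miR-425-5p it was 0.22 in serum, beside a total SD of 0.55, and 0.17 in muscle, beside 0.51. In serum it was 0.16 for miR-320-3p, beside 0.29, and 0.14 for miR-423-3p, beside 0.42. The spread within groups and the spread between group means differed by member. For miR-423-3p in serum, the group means spanned 0.78 on the log2 scale and the SD within groups was 0.29. For miR-191-5p in serum, the group means spanned 0.21 and the SD within groups was 0.61. With library totals, the SD of miR-191-5p in serum was 0.33, rank 8 of 133, and miR-425-5p, at 0.53, had the highest rank of the 6, 47 of 133.

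**Figure D2:**
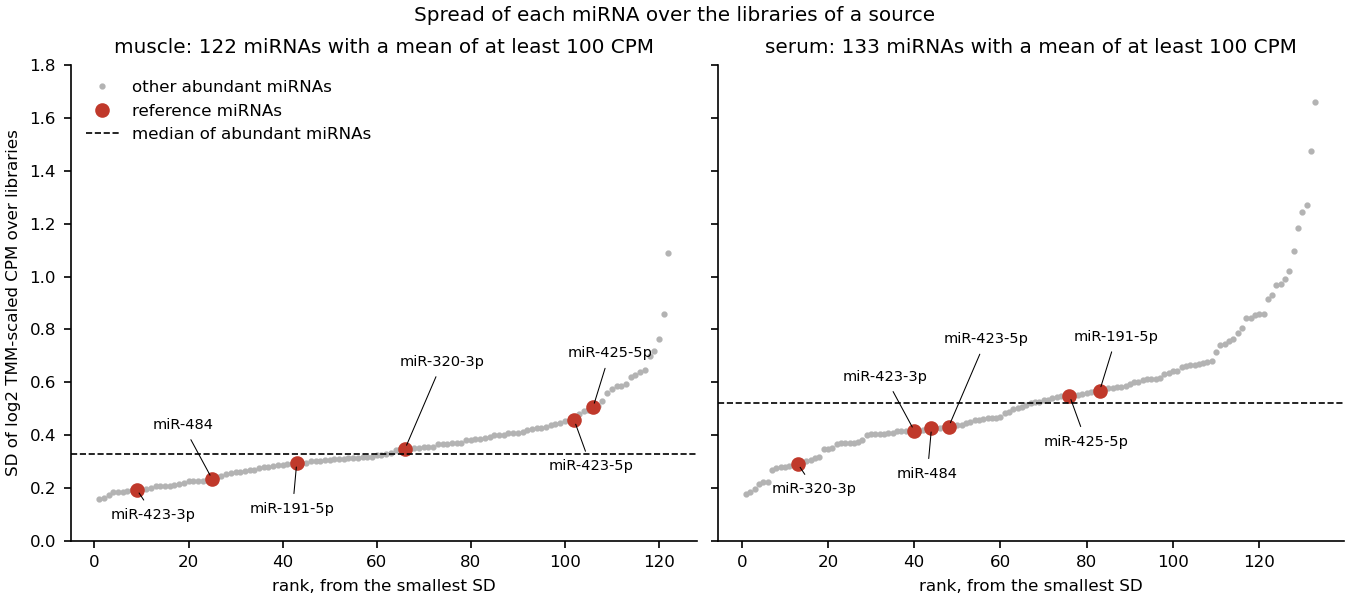
The SD of log2 TMM-scaled CPM over the libraries of a source is plotted against its rank, for muscle and serum, with the reference miRNAs in red, other miRNAs of at least 100 CPM in grey and their median as a dashed line. The red points run from rank 9 to 106 of 122 in muscle and from rank 13 to 83 of 133 in serum.

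The libraries that deviated most were young ones in serum. On the TMM scale, miR-191-5p in young serum 1 deviated from the serum median by -1.42 (log2) and in young serum 4 by 1.02. Young serum 4 was also the highest library for miR-425-5p (1.19) and miR-484 (0.54), yet the lowest for miR-320-3p (-0.42). Young serum 1 was the lowest for miR-484 (-0.89). These are the libraries with the largest and smallest serum TMM factors, 1.36 for young serum 1 and 0.71 for young serum 4. Without young serum 1, the SD of miR-191-5p in serum was 0.45. In muscle, young muscle 3 was the highest library for miR-191-5p (0.78) and the lowest for miR-425-5p (-0.95), so the neighbouring hairpins deviated in opposite directions there. Young muscle 4 was the highest for miR-423-5p (0.98) and miR-320-3p (0.53).

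The mean deviation of the 6 members, as an index of what normalizing to them would do, was -0.01 ± 0.08 in young muscle, -0.12 ± 0.10 in old muscle and 0.06 ± 0.06 in disuse muscle (log2, SD, n = 5). In serum it was -0.11 ± 0.43 (n = 5) in young, 0.17 ± 0.22 (n = 4) in old and -0.01 ± 0.18 (n = 5) in disuse. The young serum libraries ran from -0.60 to 0.51 on the TMM scale, but from -0.12 to 0.09 with library totals. With library totals the old serum libraries ran from -0.01 to 0.54 and the disuse serum libraries from -0.10 to 0.31, so which serum group varied most depended on the scaling.

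**Figure D3:**
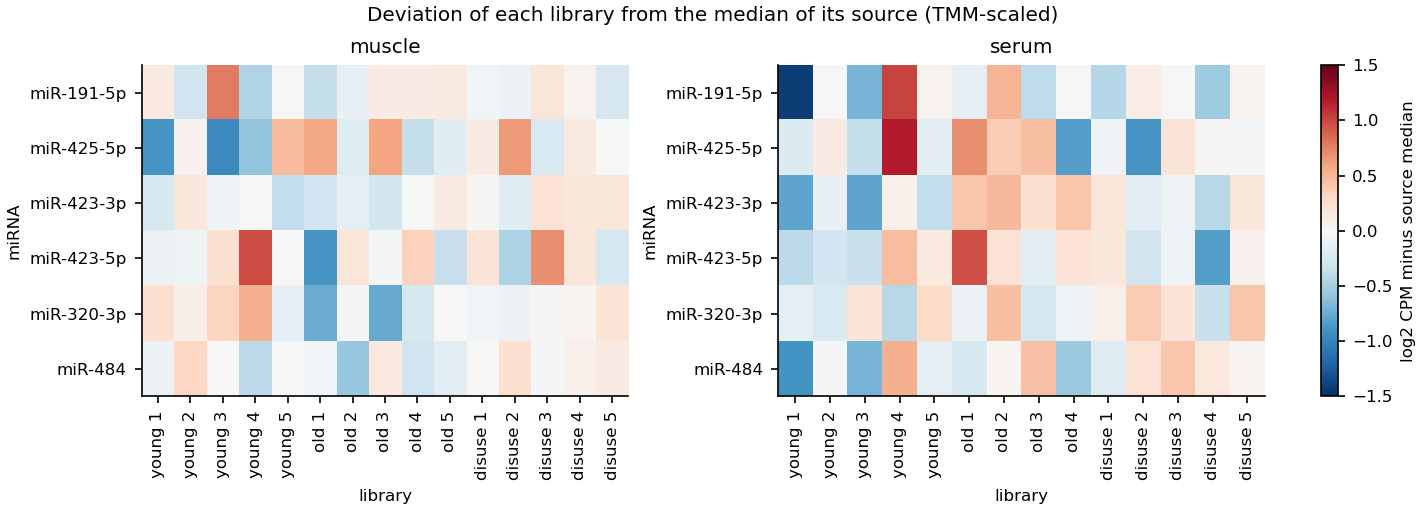
Colour shows the log2 TMM-scaled CPM of each reference miRNA in each library minus its median over that source, for muscle at the left and serum at the right, with libraries in columns. Red is above the median and blue below it; the most extreme cells are miR-191-5p in young serum 1 (-1.42) and miR-425-5p in young serum 4 (1.19).

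Ratios between members do not depend on how libraries are scaled. In muscle the steadiest pair was miR-423-3p with miR-484, whose log2 ratio had an SD of 0.29 over 15 libraries, and the least steady was miR-425-5p with miR-423-5p (0.84). In serum the steadiest was miR-423-3p with miR-423-5p (0.35 over 14 libraries), and the least steady was miR-425-5p with miR-320-3p (0.73). Averaged over its 5 partners, miR-423-3p had the lowest SD of log2 ratios in both sources, 0.40 in muscle and 0.47 in serum. miR-425-5p had the highest, 0.67 and 0.59.

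The strands of the miR-423 hairpin changed places between sources. miR-423-3p exceeded miR-423-5p in 15 of 15 muscle libraries, with log2 ratios of 0.46 to 2.04, and miR-423-5p exceeded miR-423-3p in 14 of 14 serum libraries, with log2 ratios of -1.57 to -0.61. The geometric mean ratio of the 3p to the 5p strand was 2.18 in young, 2.77 in old and 2.72 in disuse muscle. In serum the 5p strand exceeded the 3p strand 2.52-fold in young, 1.92-fold in old and 1.86-fold in disuse libraries. The log2 ratio of miR-191-5p to miR-425-5p had group means of 6.73 to 7.31 in muscle and 7.29 to 7.61 in serum.

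Neither ratio differed between groups of a source after adjustment over 12 exact two-sided permutation tests. The lowest p was for the miR-423 strands in disuse against young serum, where the log2 ratio was 0.44 higher (exact p = 0.0397, adjusted p = 0.476, smallest possible p 0.00794). For old against young serum the same ratio was 0.40 higher (exact p = 0.206, adjusted p = 0.629, smallest possible p 0.0159).

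**Figure D4:**
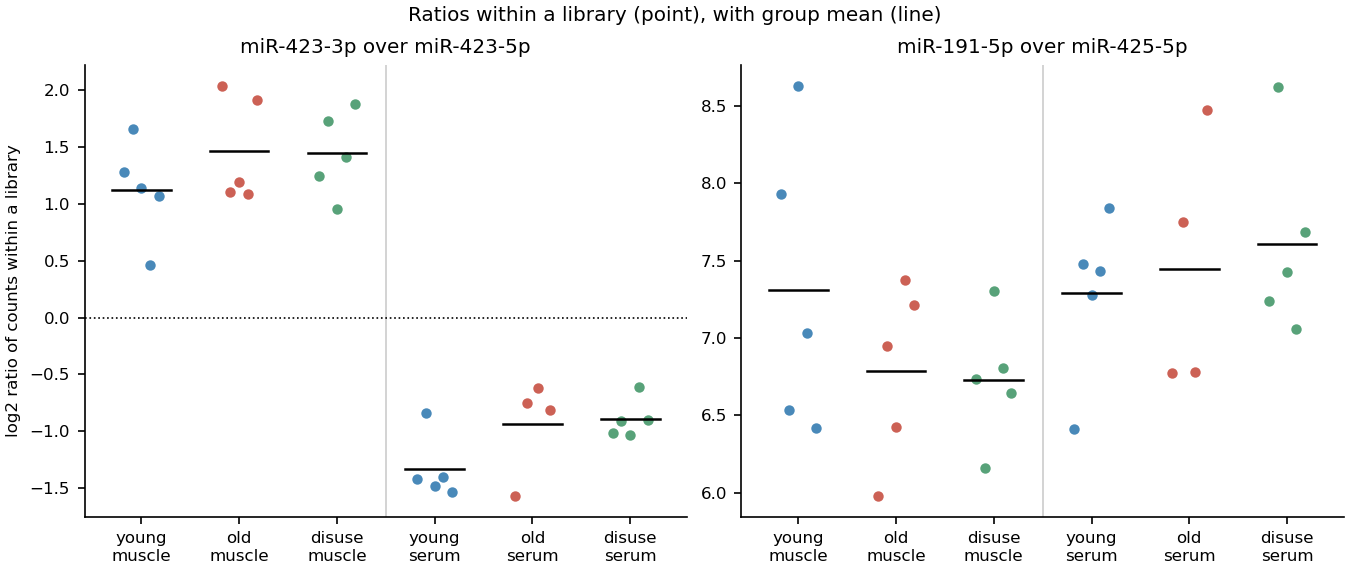
The log2 ratio of miR-423-3p to miR-423-5p (left) and of miR-191-5p to miR-425-5p (right) is plotted for each library, with a line at the group mean. All muscle points of the miR-423 ratio lie above 0 (0.46 to 2.04) and all serum points below it (-1.57 to -0.61).

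Differences between groups of a source were tested with edgeR's quasi-likelihood test over all miRNAs that passed its filter, 341 in muscle and 165 in serum, and called at a Benjamini-Hochberg adjusted p under 0.05. All 6 members passed the filter in every comparison. Comparisons within a source share control libraries, so they are not independent.

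In old against young muscle, 0 of 6 members were called by edgeR, where 5.87% of all tested miRNAs were. At an unadjusted p under 0.05 the count was 1, miR-320-3p, beside 73 of all 341 tested miRNAs. DESeq2 called that 1 member, among 33 miRNAs called in all. miR-320-3p had a log2 fold change of -0.54 ± 0.18 (SE, 95% interval -0.92 to -0.16, edgeR adjusted p = 0.0820), with 0 of 5 old libraries above the young median. Without young muscle 5 it was -0.62 (adjusted p = 0.0393) and without old muscle 5 also -0.62 (adjusted p = 0.0432), both past the threshold. The other members ran from -0.36 for miR-423-5p (95% interval -0.88 to 0.16) to 0.35 for miR-425-5p (-0.20 to 0.91). The median absolute log2 fold change of the members was 0.25, beside 0.32 over all tested miRNAs. miR-423-3p was closest to 0, at -0.02 (95% interval -0.34 to 0.30). Its sign changed under 3 of 8 other settings and in 7 of 10 fits that left out a library, so no direction is read from it.

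In disuse against young muscle, edgeR called 0 of 6 members, and 0.293% of all tested miRNAs. No member had an unadjusted p under 0.05, beside 29 of all 341 tested miRNAs, and DESeq2 called 0 members. The largest estimate was for miR-425-5p, 0.39 (95% interval -0.17 to 0.95), and the narrowest interval was for miR-423-3p, 0.17 (-0.15 to 0.49). In old against disuse muscle, edgeR again called 0 of 6 members, where 3.52% of all tested miRNAs were called. No member passed unadjusted, beside 48 of all 341 tested miRNAs, and DESeq2 called 0 members. miR-320-3p had the largest estimate, -0.34 (95% interval -0.72 to 0.03). The intervals of miR-425-5p and miR-423-5p in muscle still include differences of over 0.5 on the log2 scale, so these tests do not show equal levels.

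In old against young serum, 1 of 6 members was called, beside 9.7% of all tested miRNAs. miR-423-3p was higher in old serum, at 1156 ± 176 CPM (SD, n = 4) against 673 ± 83.2 CPM (SD, n = 5). Its log2 fold change was 0.74 ± 0.23 (SE, 95% interval 0.26 to 1.22, edgeR adjusted p = 0.0472). Though 4 of 4 old libraries were above every young library, how many of all tested miRNAs separated in this way was not counted. The call sits at the threshold and rests on 41 to 192 counts a library in young serum and 54 to 236 in old. DESeq2 gave 0.81 (adjusted p = 0.0144). With library totals edgeR gave 0.77 (adjusted p = 0.135) and after thinning to the depth of the shallowest library 0.71 (adjusted p = 0.130). Scaled by the other 5 members, miR-423-3p was 0.60 higher (adjusted p = 0.139).

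Leaving out single libraries ended the miR-423-3p call in 7 of 9 cases, while the log2 fold change stayed between 0.65 and 0.87. Without young serum 1, 3 or 5 it was 0.74, 0.65 and 0.74 (edgeR adjusted p = 0.0675, 0.0887 and 0.0633). Without old serum 1, 2, 3 or 4 it was 0.73, 0.70, 0.79 and 0.81 (adjusted p = 0.104, 0.129, 0.0598 and 0.0501).

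Red cell miRNAs are given beside this result because miR-451a was also called in this comparison. It was lower in old serum (log2 fold change -0.82, edgeR adjusted p = 0.0363), where miR-423-3p was higher. The log2 ratio of miR-451a, which is abundant in red cells, to miR-23a-3p is used as a measure of haemolysis. It was 0.99 ± 0.41 (SD, n = 4) in old and 2.31 ± 0.84 (n = 5) in young serum, with ranges of 0.58 to 1.37 and 1.54 to 3.57 that did not overlap. How many other ratios separated these groups was not counted. Part of the gap came from miR-23a-3p, whose log2 fold change in old against young serum was 0.50 ± 0.25 (SE, edgeR adjusted p = 0.255). All 6 erythrocyte markers were counted in both groups and summed to 187693 to 396864 CPM in old and 298994 to 528733 CPM in young serum. Over all serum libraries miR-486-5p averaged 229792 CPM, miR-3107-5p 116483 CPM and miR-451a 10009 CPM. These sums are thus mostly miR-486-5p and miR-3107-5p. The 6 leukocyte and platelet markers summed to 10758 to 22964 CPM in old and 11800 to 19402 CPM in young serum. Their part in the miR-423-3p result was not tested.

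The other members in old against young serum ran from 0.02 for miR-191-5p (95% interval -0.75 to 0.80) to 0.41 for miR-423-5p (-0.16 to 0.98). miR-320-3p was at 0.09 (-0.41 to 0.59), miR-425-5p at 0.05 (-0.69 to 0.78) and miR-484 at 0.13 (-0.46 to 0.72). The 6 had a median of 0.11, where all tested miRNAs had -0.09, and a median absolute log2 fold change of 0.11, where all had 0.41. These intervals are wider than in muscle, reaching 0.80 for miR-191-5p.

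In disuse against young serum, edgeR called 0 of 6 members and 0% of all tested miRNAs, 20 of which had an unadjusted p under 0.05. No member did, and DESeq2 called 0 members. miR-423-3p was at 0.31 (95% interval -0.15 to 0.76) and miR-484 at 0.29 (-0.26 to 0.85). In old against disuse serum, edgeR called 0 of 6, beside 2.42% of all tested miRNAs. No member passed unadjusted, beside 17 of all 165 tested miRNAs, and DESeq2 called 0 members. miR-423-5p had the largest estimate, 0.52 (95% interval -0.06 to 1.09), followed by miR-423-3p with 0.43 (-0.04 to 0.91).

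**Figure D5:**
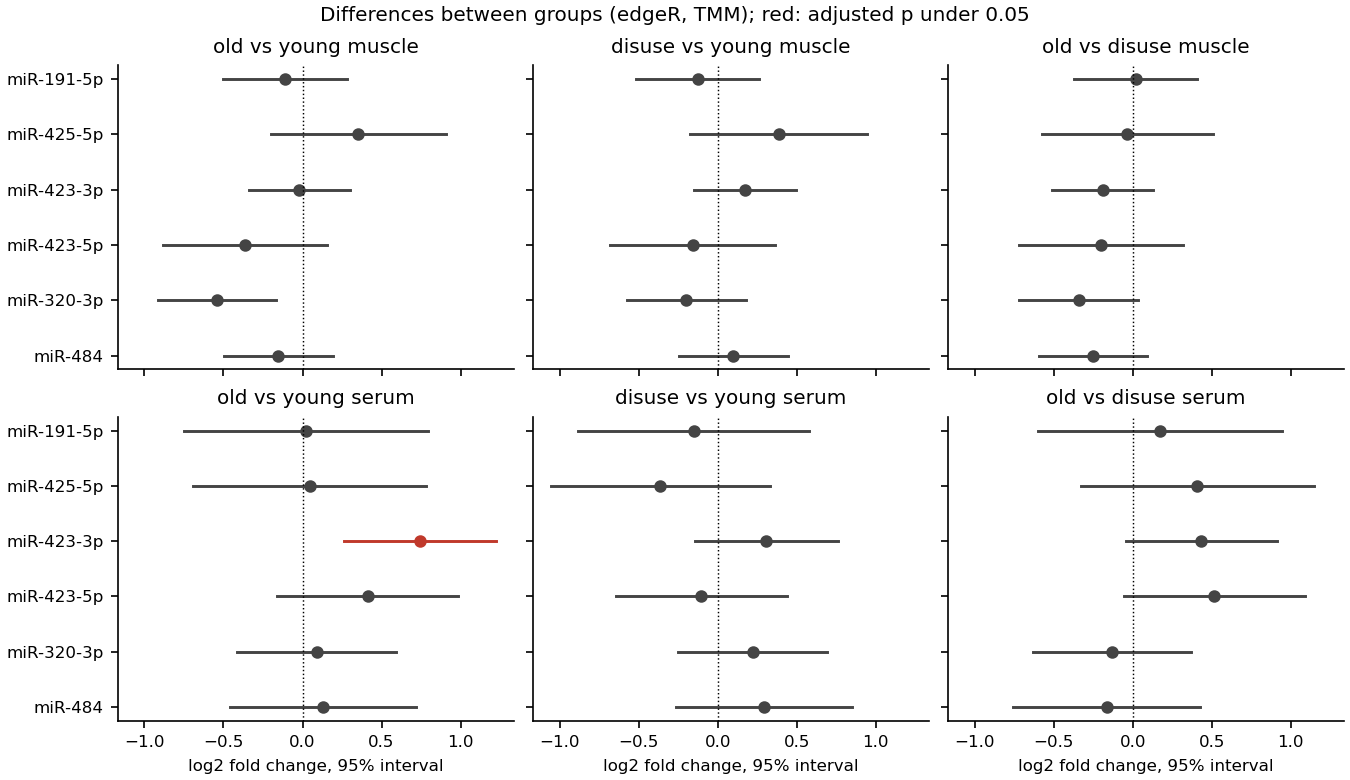
Points are edgeR log2 fold changes and bars their 95% intervals for the 6 reference miRNAs in each comparison within muscle (top) and serum (bottom); red marks an adjusted p under 0.05. The red point is miR-423-3p in old against young serum (0.74, interval 0.26 to 1.22).

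Between serum and muscle the members moved apart. In young mice edgeR called 4 of 6, beside 76.3% of all tested miRNAs: miR-191-5p (log2 fold change 2.02 ± 0.37, SE) and miR-425-5p (1.71 ± 0.42) were higher in serum, and miR-423-3p (-1.88 ± 0.31) and miR-320-3p (-1.27 ± 0.29) were lower. Their adjusted p-values were 1.48e-05 to 0.000970. After thinning to the shallowest library, miR-320-3p was at -0.46 (adjusted p = 0.109), which ended its call. miR-423-5p (0.51, 95% interval -0.15 to 1.17) and miR-484 (0.16, -0.51 to 0.84) were not called. With library totals both were called higher in serum, at 0.98 (adjusted p = 0.00456) and 0.62 (adjusted p = 0.0334). Over 8 other settings miR-423-5p was called in 4 (0.29 to 1.27) and miR-484 in 2, with estimates of -0.10 to 0.79. Without young muscle 4, miR-423-5p was at 0.74 (edgeR adjusted p = 0.0305).

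In old mice edgeR called 4 of 6 and 69.3% of all tested miRNAs. miR-191-5p (2.19 ± 0.23), miR-425-5p (1.59 ± 0.32) and miR-423-5p (1.37 ± 0.28) were higher in serum and miR-423-3p (-1.02 ± 0.22) was lower. miR-320-3p (-0.56 ± 0.26, adjusted p = 0.0639) and miR-484 (0.57 ± 0.26, adjusted p = 0.0533) were not called. Over 8 other settings miR-320-3p ran from -1.51 to -0.22 and was called in 3, and miR-484 ran from -0.13 to 0.99 and was called in 4. The estimate below 0 was the fit scaled by the other 5 members. Leaving out old serum 2 brought miR-320-3p to -0.77 (edgeR adjusted p = 0.0199). For miR-484, leaving out old muscle 3 gave 0.88 (adjusted p = 0.00942) and old serum 4 gave 0.70 (adjusted p = 0.0263). With library totals miR-423-3p was -0.63 (adjusted p = 0.0549).

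In disuse mice edgeR called 6 of 6, beside 86.5% of all tested miRNAs. miR-191-5p (2.09 ± 0.17), miR-425-5p (1.17 ± 0.21), miR-423-5p (0.72 ± 0.21) and miR-484 (0.51 ± 0.16) were higher in serum. miR-423-3p (-1.61 ± 0.17) and miR-320-3p (-0.75 ± 0.18) were lower. Scaling by the other 5 members ended the calls of miR-423-5p (0.42, adjusted p = 0.0854) and miR-484 (0.20, adjusted p = 0.299). For miR-320-3p, library totals gave -0.27 (adjusted p = 0.140) and thinning -0.22 (adjusted p = 0.273). In CPM of library totals over all groups, the ranges of muscle and serum libraries did not overlap for miR-191-5p, miR-425-5p, miR-423-3p and miR-484, and overlapped for miR-423-5p and miR-320-3p. The share of all miRNAs without overlap was not counted, so this is not read as particular to the members. On that scale miR-320-3p was nearest to equal, at 903 ± 224 CPM (SD, n = 15) in muscle and 678 ± 143 CPM (n = 14) in serum. In the TMM fits miR-484 was nearer to equal than miR-320-3p in young (0.16 against -1.27) and disuse mice (0.51 against -0.75). In old mice the values were 0.57 and -0.56.

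The change with age in serum was set against that in muscle by an interaction term in a fit of all 29 libraries. edgeR called 0 of 6 members and 0.83% of all tested miRNAs. At an unadjusted p under 0.05 there were 3 members, beside 34 of all 241 tested miRNAs. DESeq2 called 2 members, among 19 miRNAs called in all. The difference of the log2 fold changes, serum minus muscle, was 0.87 ± 0.29 for miR-423-3p (adjusted p = 0.118), 0.76 ± 0.29 for miR-320-3p (adjusted p = 0.190) and 0.90 ± 0.41 for miR-423-5p (adjusted p = 0.320). DESeq2 gave 1.01 for miR-423-3p (adjusted p = 0.00151) and 0.89 for miR-320-3p (adjusted p = 0.0489). Without young muscle 5 the edgeR value for miR-423-3p was 1.02 (adjusted p = 0.0413), and without young serum 4 it was 1.10 (adjusted p = 0.0275). For the change with disuse, edgeR called 0 of 6 members and 0% of all tested miRNAs, with 24 miRNAs at an unadjusted p under 0.05. miR-320-3p was the 1 member among those, at 0.65 ± 0.28 (adjusted p = 0.436), and DESeq2 called 0.

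Scaling each library by the geometric mean of the 6 members, in place of TMM factors, moved the results of the other miRNAs. For old against young serum the median log2 fold change over the tested miRNAs went from -0.09 to -0.44, and the calls went from 4 higher and 12 lower to 1 higher and 16 lower. For old against young muscle the median went from -0.01 to 0.13 and the calls from 4 higher and 16 lower to 9 higher and 14 lower. For old against disuse serum the 4 calls fell to 0.

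A list of 16 other miRNAs used as references was measured beside them, and 15 of them passed the filter in serum. Their median SD was 0.34 in muscle, where 7 of 16 were below the median of abundant miRNAs, and 0.40 in serum, where 11 of 15 were. miR-26a-5p varied least in muscle (SD 0.19) and miR-186-5p most (0.53). In serum miR-16-5p, which is abundant in red cells, varied least (0.22) and miR-107-3p most (0.67). Within sources, the 1 call on this list was miR-26a-5p, lower in old than in young serum with a log2 fold change of -0.96 ± 0.23 (edgeR adjusted p = 0.0184). Just past the threshold there were let-7a-5p (-1.02, edgeR adjusted p = 0.0587), let-7d-5p (-1.08, 0.0508) and let-7i-5p (-0.81, 0.0649). The median log2 fold change of the list in that comparison was -0.13. The least variable abundant miRNA in each source on the TMM scale was miR-27b-3p, with an SD of 0.16 in muscle and 0.18 in serum. The most variable were miR-6236 in muscle (1.09) and miR-211-5p in serum (1.66).

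The miRNAs whose log2 CPM most resembled each member were found among the abundant ones, over 15 muscle or 14 serum libraries. These correlations are descriptions, since all miRNAs of a library share its depth and scaling. No member was among the 2 most like another member, the neighbours miR-191-5p and miR-425-5p and the strands of miR-423 included. In serum, miR-423-3p was most like miR-146a-5p (Pearson r = 0.81, Spearman rho = 0.81, and r = 0.83 without the 2 libraries farthest from its median), which was also the most like miR-423-5p (r = 0.72). miR-191-5p in serum was most like miR-151-3p (r = 0.85), but r fell to 0.46 without the 2 farthest libraries. miR-320-3p in serum was most like miR-23a-3p (r = 0.72, and 0.59 without 2). In muscle, miR-425-5p was most like miR-15a-5p (r = 0.88, and 0.79 without 2) and miR-484 most like miR-574-3p (r = 0.84, and 0.82 without 2). miR-191-5p in muscle was most like miR-365-3p (r = 0.76, and 0.40 without 2), so that likeness rests on those 2 libraries.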

How the data were processed

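The deposited table holds raw counts of reads for each mature miRNA in each library. Of its 1183 miRNAs, 695 have a value in all 29 libraries and were used. The other 488 have 28 values for 29 libraries, and the first 13 of these are 0. Read in order, they leave the last column empty, but which library lacks its value is not given. The unit of that deposited column was recorded as other for this reason, although its values here are counts. All counts of the 488 together equal 0.0518% of the muscle counts used. The submitters' processing notes name Bowtie and mm10. The Bowtie version, the annotation of miRNAs and how multiply matching reads were treated were not given in the sources used here. Per the labels' protocols, RNA came from muscle with Trizol or from 300 µl of serum with a kit, and TruSeq libraries of at most 15 PCR cycles were cut from a gel at 145 to 160 bp.

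Differences were fitted with edgeR 4.0.16 in R 4.3.3 (glmQLFit, glmQLFTest, TMM, filterByExpr by group, Benjamini-Hochberg over all tested miRNAs). The 3 groups of a source were fitted together, each serum with its muscle group, and interactions over all libraries. The SE is the log2 fold change divided by the square root of F. Ratios used exact permutation tests (scipy 1.17.1), and the scripts were tested on simulated data. DESeq2 1.42.0, library totals, upper-quartile factors, no filter, thinning, scaling by the members, a replicate block and leaving out each library were alternatives. Named besides the members were their opposite strands, marker miRNAs, and listed reference miRNAs that passed or nearly passed a test or were extreme. The 2 most like each member and the most and least stable abundant miRNAs were also named. The members, lists and tests were chosen with earlier results of these data known. miR-320-5p is among the 488 and was not used.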

Additional observations from a re-analysis of the deposited data

Results flagged for a closer look

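Of 48 groups of 4 or 5 values checked for a single library far from the rest, 2 held one, where chance alone marks about 1 in 20. miR-423-5p was at 1454 CPM in young muscle 4, while the other 4 young muscle libraries lay between 649.8 and 868 CPM. The log2 ratio of miR-423-3p to miR-423-5p was -0.84 in young serum 2, while the other 4 young serum libraries lay between -1.54 and -1.40.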

How the results depend on the processing

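The count of members called within muscle for old against young was 0, and 1 with upper-quartile factors (miR-320-3p, -0.73, edgeR adjusted p = 0.0255) and with DESeq2 (-0.54, adjusted p = 0.0492); leaving out each library gave 0 to 1. For old against young serum it was 1, and 0 with library totals, no filter (miR-423-3p 0.80, adjusted p = 0.197), thinning, the replicate block, scaling by the members or only the 2 groups fitted (0.77, adjusted p = 0.0993); leaving out each library gave 0 to 1. For the change with age in serum against muscle it was 0, and 1 with upper-quartile factors (miR-423-3p 1.09, adjusted p = 0.0497) and 2 with DESeq2; leaving out each library gave 0 to 1. The cause of these changes was not tested. No called difference of a member changed sign under any alternative run.

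Same-numbered libraries did not deviate together in all pairs (2 of 4 pairs above a correlation of 0.1 for old and young serum, from -0.24 to 0.41, and 0 of 5 for old and young muscle). For serum and muscle of the same group, 0 of 5 pairs were above 0.1 in young, 0 of 4 in old and 0 of 5 in disuse. Numbers were therefore not taken to pair samples. With the replicate block, miR-423-3p in old against young serum was 0.78 (edgeR adjusted p = 0.0653), and this was the 1 member call it changed.

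Counts over all miRNAs moved more. Old against young muscle had 20 calls, 36 with upper-quartile factors, 33 with DESeq2 and 7 thinned. Disuse against young muscle had 1, from 0 to 2 elsewhere, and old against disuse muscle 12, or 3 thinned. Old against young serum had 16, 5 with library totals (2 higher and 3 lower), 9 thinned, 6 with only the 2 groups, and 1 without old serum 2 or 9 without old serum 1. Disuse against young serum had 0, or 5 with no filter. Old against disuse serum had 4, and 0 with library totals, the block or member scaling. Young serum against muscle had 145 (62 higher and 83 lower), 236 with DESeq2, 270 with no filter and 92 thinned; with library totals 76 were higher and 68 lower, and the median moved from -0.34 to 0.16. Old serum against muscle had 219, or 94 thinned, and disuse 166, 289 with DESeq2 and 327 with no filter; with library totals disuse had 88 higher and 73 lower, beside 73 and 93. The change with age had 2, from 0 thinned to 19 with DESeq2, and with disuse 0, or 5 with no filter. Upper-quartile factors moved the median for old against young muscle from -0.01 to -0.21.

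Depth limits miR-425-5p and miR-320-3p most: serum libraries held as few as 10 and 28 of their counts. After thinning, miR-425-5p did not pass the filter in old serum against old muscle and has no value there.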

Other observations

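miR-27b-3p, the least variable abundant miRNA in each source on the TMM scale, also had close group means across sources in CPM of library totals. It was at 17188 ± 1345, 16123 ± 953 and 15494 ± 1103 CPM (SD, n = 5) in young, old and disuse muscle. In serum it was at 15255 ± 6351 (n = 5), 15674 ± 4440 (n = 4) and 15011 ± 3535 CPM (SD, n = 5). Single serum libraries were not close on this scale: the young ones ran from 8689 to 24376 CPM. Chosen as the lowest SD of all abundant miRNAs in these same libraries, it is a description and was not tested.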
